A study of Homo sapiens with 6 samples.

Results

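The HOX clusters A to D are described here through the peaks of N6-methyladenosine (m6A) signal that lie in them. A peak belonged to a cluster when its centre lay in the cluster's window of the hg19 genome and its strand was the one on which the cluster's genes are read. The windows were chromosome 7 at 27132000 to 27250000 on the minus strand for HOXA, chromosome 17 at 46604000 to 46810000 on the minus strand for HOXB, chromosome 12 at 54332000 to 54450000 on the plus strand for HOXC, and chromosome 2 at 176957000 to 177056000 on the plus strand for HOXD. Of 21286, 19851 and 20010 peaks in the lists of MeRIP 1, MeRIP 2 and MeRIP 3, 41, 36 and 36 lay in the windows. Same-strand peaks with an overlap of 1 bp or more were joined into 44 regions, of 25737 regions in the whole series.

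The study measured m6A in wild-type HEK293T, an established line of human embryonic kidney cells that carries the SV40 large T antigen, with no treatment named in the labels. In MeRIP-seq, RNA fragments that carry m6A are pulled down with an antibody (IP) and sequenced beside the starting RNA (input). The experiment was done 3 times, which gave 6 samples, an IP and an input each time, and 1 list per repeat in which the IP was set against the matching input. Nothing in the labels says whether the repeats were separate cultures, so a spread between lists may be technical.

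HOX genes encode homeodomain transcription factors that give cells their position along the head-to-tail axis of the embryo. They sit in 4 clusters, and within a cluster the genes are read from the same strand and numbered by paralogue group, from the low numbers expressed early and towards the head to the high numbers expressed late and towards the tail. Developing kidney, like other trunk tissues, is patterned by genes of this family. In mRNA, m6A is placed mostly by METTL3 with METTL14, while METTL16, named in the title of the series, methylates a separate set of RNAs, and m6A is known to be dense near stop codons and in long exons.

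All 38 HOX genes named for these clusters were found in the RefSeq gene table, which is of another build, GRCh38.p14, so it was used for names and order alone. In that table HOXA13 lies at the upstream end of its cluster and HOXA2 near the downstream end. HOXB runs from HOXB13 to HOXB1 and HOXD from HOXD13 to HOXD1. HOXC runs from HOXC13 to a downstream group of HOXC4, HOXC5 and HOXC6, whose order among themselves is not read from the table. No hg19 annotation or genome sequence was used here, so no peak was given to a gene, an exon or an untranslated region, and no peak sequence is shown. Regions are numbered instead along the strand from the upstream end, where the group 13 genes lie in that table, and each window was cut into 4 sections of equal length in the same direction.

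All 4 clusters carried peaks in every list. In HOXA, MeRIP 1 listed 11 peaks, MeRIP 2 listed 9 and MeRIP 3 listed 10. HOXB had 10, 12 and 11, HOXC had 13, 9 and 9, and HOXD had 7, 6 and 6. Joined over the lists, these made 12 regions in HOXA, 12 in HOXB, 13 in HOXC and 7 in HOXD. The count of peaks thus varied by 1 to 4 between lists in a cluster, and the highest count of HOXA, HOXC and HOXD was that of MeRIP 1, the longest list overall.

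**Figure D1:**
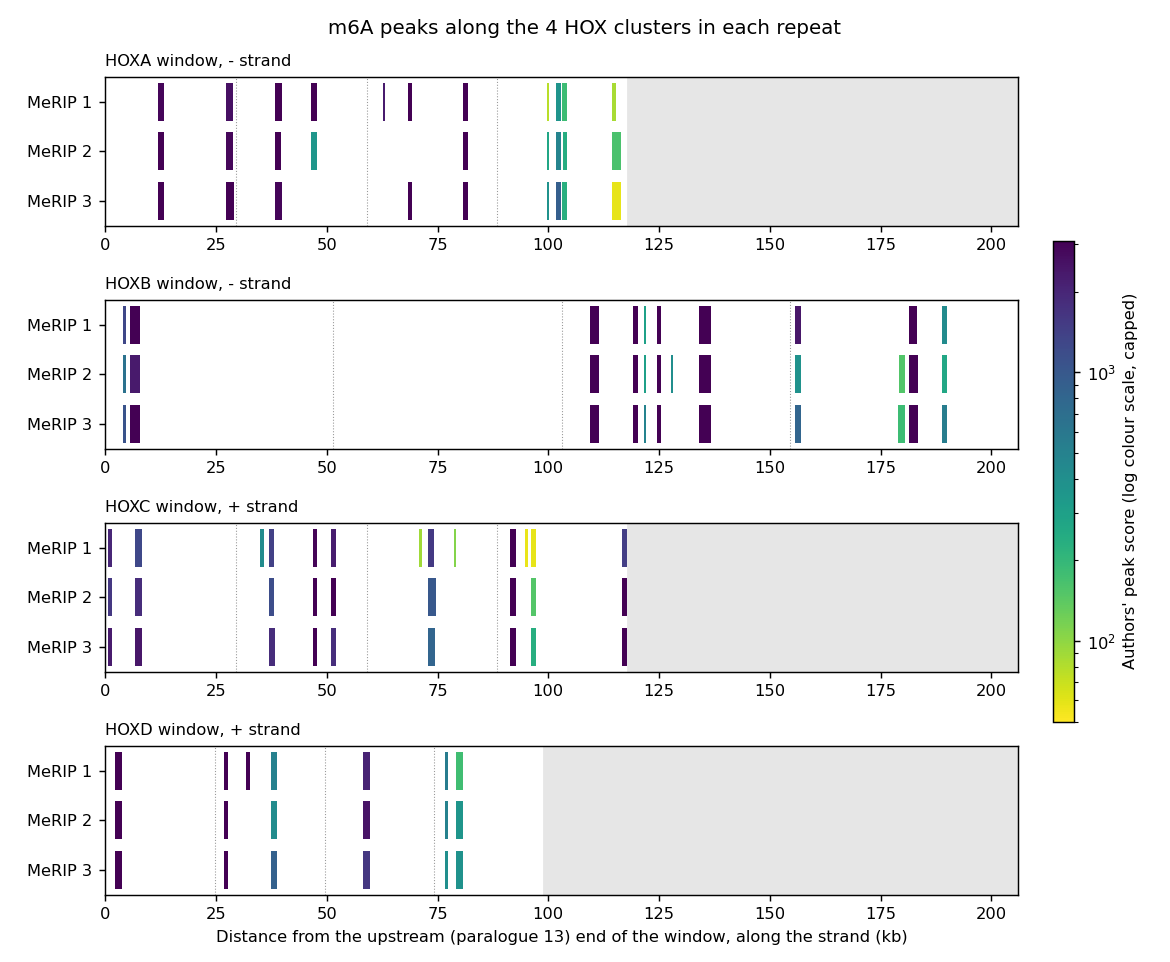
Each bar is a peak, drawn to scale along the distance in kb from the upstream end of its window, with a row for each repeat and darker colour for a higher peak score (log colour scale from 50 to the ceiling of 3100). Dotted lines mark sections and grey marks the space beyond a shorter window. The HOXA bars up to 81.3 kb score 2306 or more except 1, at 47.2 kb in MeRIP 2 with 355.7, those from 99.9 kb on score at most 904.8, and HOXB has no bar between the peaks centred at 6.7 and 110.5 kb.

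The score is the authors' own value for each peak. It ran from 50 to a ceiling of 3100 shared by many peaks, has no stated scale, and was set to 3100 where it was higher. A peak caller's score depends in general on the coverage of a transcript and the width of a peak as well as on methylation, so a higher score is not a higher level of m6A. Read depth is unknown from these lists, so absence from a list does not show that RNA lacked m6A.

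HOX peaks had high scores and were wide. MeRIP 1 had a median HOX score of 2099.55, MeRIP 2 of 1718 and MeRIP 3 of 2077, against 419.9, 422.1 and 443.4 for all peaks of the same lists. Of the HOX peaks, 14 of 41, 14 of 36 and 15 of 36 were at the ceiling, which is 38.2 ± 3.80% (SD, n = 3 lists), against 17.9 ± 0.373% of all peaks. Their median width was 1110, 1204 and 1194 bp, against 414.5, 441 and 433 bp. Peaks of over 1000 bp made up 69.4 ± 7.43% of HOX peaks and 25.5 ± 0.710% of all peaks. In each of these 4 measures the lowest HOX value of the 3 lists was above the highest value for all peaks. The difference in median log2 score was 2.19 ± 0.152 and was positive in 3 of 3 lists (exact two-sided sign-flip permutation test over lists, p = 0.25, the smallest that 3 lists allow).

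The gap in score was smaller among wide peaks. Among peaks of over 1000 bp the median score was 2617, 2415 and 2422 for HOX and 1978, 1806 and 1889 for all, a log2 difference of 0.39 ± 0.0312, again positive in 3 of 3 lists (exact sign-flip permutation p = 0.25). In that width class 43.6 ± 1.13% of HOX peaks and 39.8 ± 1.18% of all peaks were at the ceiling. The wide HOX peaks were narrower than wide peaks at large. Median widths were 1242, 1398.5 and 1322 bp for HOX and 1650.5, 1689 and 1685.5 bp for all.

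**Figure D2:**
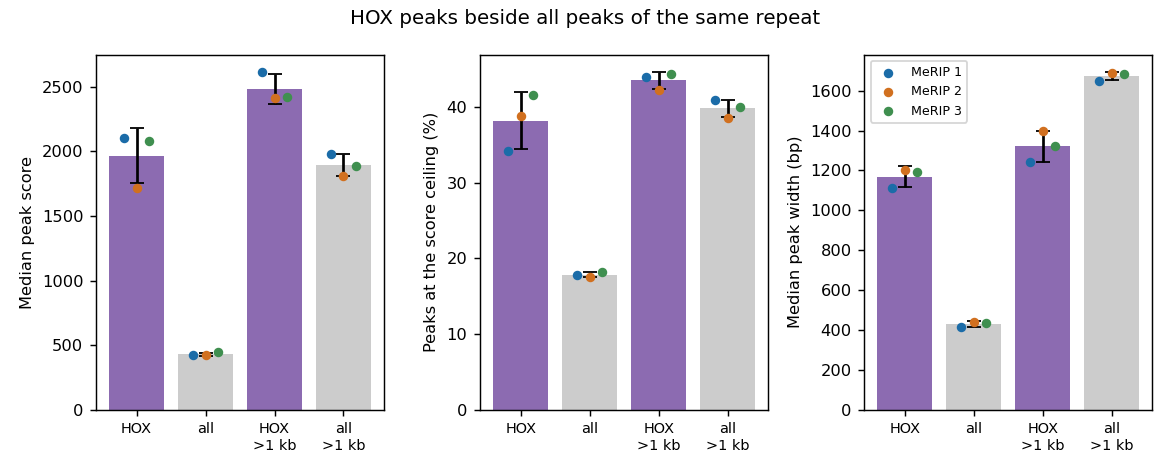
Bars give the mean over the 3 repeats and error bars the SD, with a point for each repeat, of the median peak score (left), the percentage of peaks at the score ceiling (middle) and the median width in bp (right), for HOX peaks, all peaks, and both restricted to over 1000 bp (1 kb). The HOX points sit at 1718 to 2099.55 in score against 419.9 to 443.4 for all peaks. The gap is smaller in the wide class, where the score ceiling leaves less room for one.

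Of the 44 HOX regions, 33 (75.0%, 95% Wilson interval 60.6 to 85.4%, for counting error only) had a peak in all 3 lists, against 59.3% of all regions. Another 3 were in 2 lists and 8 (18.2%) in 1 list alone, where the figure for all regions was 22.8%. The regions of over 1000 bp, 28 of the 44 (63.6%, against 23.1% of all regions), were in all 3 lists in 25 cases (89.3%, interval 72.8 to 96.3%), beside 81.5% of all regions of that width. The interval for all HOX regions lay just above the background, and the interval for the wide ones included it. The share of HOX regions in all 3 lists was 71.1% when peaks were joined only at a 50% reciprocal overlap. Little is thus read from so small a margin. By cluster, 8 of 12 regions in HOXA, 10 of 12 in HOXB, 9 of 13 in HOXC and 6 of 7 in HOXD were in all 3 lists, and the 95% Wilson intervals of the 4 clusters overlapped.

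Regions at the ceiling in every list numbered 9 of 44 (20.5%, interval 11.2 to 34.5%), against 11.2% of all regions. HOXB held 5 of them, HOXD 2, and HOXA and HOXC 1 each. The interval is wide and its lower bound falls on the background figure.

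HOXA, which holds posterior genes such as HOXA13 upstream and anterior genes such as HOXA2 downstream, had its strong peaks in the first 3 sections. There, 6 of 7 regions reached the ceiling in at least 1 list, as did 19 of the 44 HOX regions (43.2%) and 17.3% of all regions. None of the 5 regions of the last section did, and beside the 17.3% of all regions nothing is read from this. Their scores ran from 58.6 to 905. The median score in the first 3 sections was 3100 in each list, and in the last section 135.4, 256.3 and 230.8. Scores of the last section lay below 1000 in all 13 peaks that the 3 lists hold there, which belong to the same 5 regions. The median score of all peaks was also below 1000 in each list, at 419.9, 422.1 and 443.4. Nothing is therefore read from that count.

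HOXA region 7, on chromosome 7 at 27168126 to 27169190, was at 3100 in all 3 lists and 1065 bp wide in each. HOXA region 1, at 27236782 to 27238061 and the nearest to the upstream end, scored 2931 in MeRIP 1 and 3100 in MeRIP 2 and MeRIP 3. HOXA region 3, at 27210210 to 27211792, scored 3100, 3100 and 2911. These were the regions of HOXA whose lowest score over the lists was highest. With scores capped at 3100, that choice leaves little room for a difference between lists, so none is read from them.

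HOXA region 12, at 27133527 to 27135531, was the widest of its cluster at 2005 bp and among the weakest, with 86.4, 164.2 and 58.6. Its upstream edge was the same in all lists, while its width was 844 bp in MeRIP 1, 1916 bp in MeRIP 2 and 2005 bp in MeRIP 3. HOXA region 8, at 27149734 to 27150379, had the largest relative spread among HOXA regions below the ceiling in all lists, with 78.4, 271.6 and 376.9, a highest score 4.81 times the lowest. Its edges did not differ between lists, so the score moved while the extent did not.

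HOXA also held 4 of the 11 HOX regions that were missing from a list. HOXA region 6, at 27180671 to 27181704, was at 3100 in MeRIP 1 and MeRIP 3, with the same edges, and was not listed in MeRIP 2. HOXA region 4, at 27202223 to 27203460, was at 3100 in MeRIP 1, at 355.7 in MeRIP 2 and not listed in MeRIP 3. HOXA region 5, at 27186927 to 27187393, scored 2306 in MeRIP 1 and was in no other list. These 3 strong but inconstant regions followed one another between 47.2 and 68.8 kb from the upstream end. HOXA region 11, at 27142367 to 27142394, was a peak of 28 bp with a score of 108.3 in MeRIP 3 alone and the narrowest region of the 4 clusters.

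HOXB, which runs from HOXB13 to HOXB1, had its peaks at the upstream end and in the downstream part. Section 1 held 2 regions, section 2 held none, section 3 held 6 and section 4 held 4. Of the bases covered by peaks, 19.0 ± 1.50% lay in section 1 and 47.2 ± 2.98% in section 3 (SD, n = 3 lists). The regions at the ceiling in every list were 4 of the 6 in section 3 and 1 of the 4 in section 4. This cluster was thus the most uneven of the 4 in where its peaks lay. No named HOX gene lies between HOXB13 and HOXB9 in the gene table, and whether gene spacing bears on the unevenness was not tested.

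HOXB region 8, on chromosome 17 at 46673167 to 46676081, was the widest of all 44 HOX regions at 2915 bp and had the same edges and a score of 3100 in all 3 lists. HOXB region 3, at 46698519 to 46700497, was likewise at 3100 in each list with identical edges and a width of 1979 bp. HOXB region 11, at 46626497 to 46628543, was at 3100 in each list, and its width was 1802, 2047 and 1963 bp. HOXB regions 4 and 6 were also at the ceiling in all lists, so 5 regions could not be ranked further by score.

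HOXB region 9, at 46652988 to 46654382, scored 2427 in MeRIP 1, 381.3 in MeRIP 2 and 819.7 in MeRIP 3. Its ratio of 6.37 between highest and lowest was the largest among the 17 HOX regions that were below the ceiling in all 3 lists. HOXB region 10, at 46629389 to 46631083, was weak, with 153.5 in MeRIP 2 and 181.8 in MeRIP 3, and was not listed in MeRIP 1. HOXB region 7, at 46681842 to 46682354, was in MeRIP 2 alone with 410.4. Near the upstream end, HOXB region 2, at 46802127 to 46804405, was 2279 bp wide in every list and scored 3100, 2347 and 3100.

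Between HOXB regions 2 and 3 no peak was listed over 101.6 kb, from 46700498 to 46802126, in any of the 3 lists. The longest such stretch of the other clusters was 26.6 kb in HOXC, 23.0 kb in HOXD and 17.7 kb in HOXA. The authors' peak names carry a running number that rose with position on each chromosome without a step down in any list, so numbers left out of a list can be placed between the listed peaks on either side. Across the 101.6 kb, MeRIP 1 left out 10 numbers, MeRIP 2 left out 15 and MeRIP 3 left out 10. What a left-out number stands for is not stated, and its part in the empty stretch was not tested. Among the HOX genes named here, HOXB9 comes next after HOXB13 in the gene table. Only these HOX genes were put in order, so other genes may lie between them. How HOXB13 and HOXB9 lie to the empty stretch in hg19, and the part of gene spacing in it, were not tested. Across the 18.8 kb between HOXB regions 8 and 9, in contrast, no number was left out in any list.

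**Figure D3:**
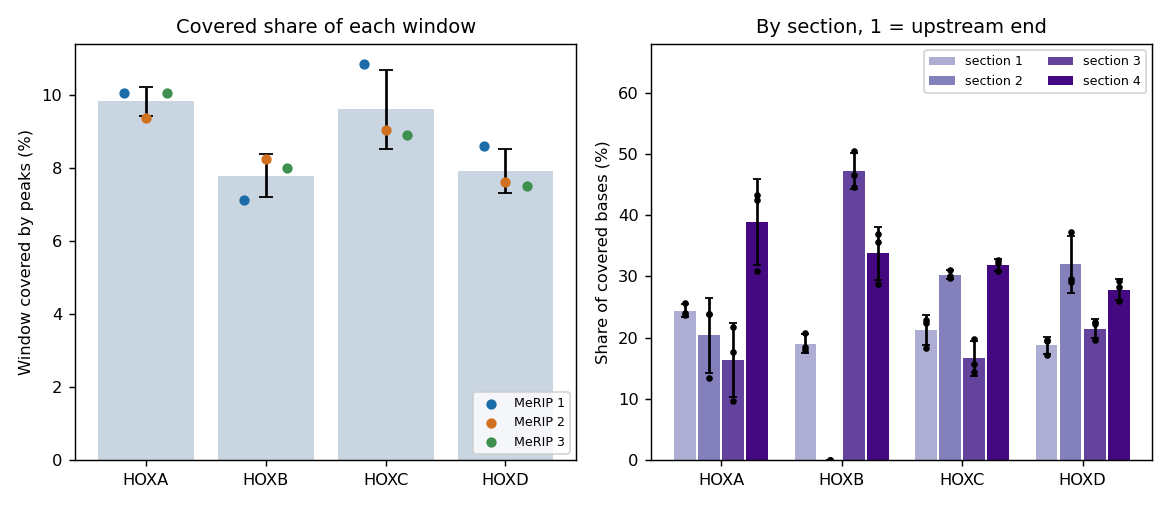
Left, the percentage of each window's bases covered by peaks, and right, the percentage of the covered bases in each section from the upstream end. Bars are means over the 3 repeats, error bars the SD and points the repeats. HOXB has 0 in section 2 and 47.2% in section 3, and the points of the 4 clusters on the left lie between 7.11 and 10.8%.

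HOXC, which runs from HOXC13 to the downstream group of HOXC4, HOXC5 and HOXC6, had peaks in every section. HOXC region 10, on chromosome 12 at 54423439 to 54424607, was at 3100 in all 3 lists with identical edges. HOXC region 5, at 54378946 to 54379794, scored 2971 in MeRIP 1 and was at the ceiling in MeRIP 2 and MeRIP 3. HOXC region 6, at 54382953 to 54384062, scored 2235, 3100 and 1811. The last region, HOXC region 13 at 54448634 to 54449814, scored 1475, 3100 and 3100 with the same edges in each list.

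The first regions of HOXC recurred with middling scores. HOXC region 1, at 54332576 to 54333426, scored 1984, 1599 and 2303, and HOXC region 2 scored 1267, 1838 and 2422. HOXC region 8, at 54404873 to 54406545, was the widest of the cluster and scored 1557, 1007 and 818.4, at widths of 1365, 1673 and 1501 bp. HOXC region 12, at 54428062 to 54429144, was weak and varied, with 58.7, 150.2 and 233.3. Its edges agreed to within 3 bp, as the score changed 3.98 times.

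The 4 HOXC regions missing from a list were in MeRIP 1 alone. HOXC region 3, at 54366912 to 54367711, scored 424.8. HOXC regions 7, 9 and 11, of 615, 555 and 513 bp, scored 90.5, 107.5 and 57.5. They account for the longer list of HOXC peaks in MeRIP 1.

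HOXD, which runs from HOXD13 to HOXD1, had its ceiling scores in the upstream part. In the first 2 sections 3 of 4 regions reached the ceiling in at least 1 list, and in the last 2 sections none of 3 did, with scores from 176.6 to 2482. Beside the 17.3% of all regions, nothing is read from the none of 3. HOXD region 1, on chromosome 2 at 176959208 to 176960666, and HOXD region 2, at 176983682 to 176984670, were at 3100 with identical edges in all 3 lists. HOXD region 5, at 177015122 to 177016794, scored 2099.55, 2482 and 1615 and was 1673 bp wide in each. HOXD region 7, the last, at 177036245 to 177037826, scored 176.6, 361.1 and 383.6.

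HOXD region 3, at 176988662 to 176989645, was at the ceiling in MeRIP 1 and not listed in MeRIP 2 or MeRIP 3. It lay between HOXD regions 2 and 4, which were in all 3 lists, and no peak number was left out between these neighbours in either of the other lists. For HOXA region 6, 2 numbers were left out in MeRIP 2 between the listed neighbours, which lie 33.1 kb apart. Over all 19 cases of a HOX region missing from a list, no number was left out between the listed neighbours in 5 and at least 1 was in 14. The same split over missing regions of the whole series was not taken, so nothing is read from these counts.

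Of the 19 HOX regions at the ceiling in at least 1 list, 3 were absent from another list: HOXA regions 4 and 6 and HOXD region 3. This was 15.8% (95% Wilson interval 5.52 to 37.6%), beside 7.12% over all regions, which the interval includes. By list, 3 of the 44 regions were missing from MeRIP 1, 8 from MeRIP 2 and 8 from MeRIP 3, which is 6.82, 18.2 and 18.2%, against 17.7, 23.2 and 22.6% of all regions. MeRIP 1 had 6 of the 8 HOX regions found in 1 list alone, and it also had the largest share of such regions over the whole series, 45.9% of 5877. No difference between lists was thus shown to be one of the HOX clusters.

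**Figure D4:**
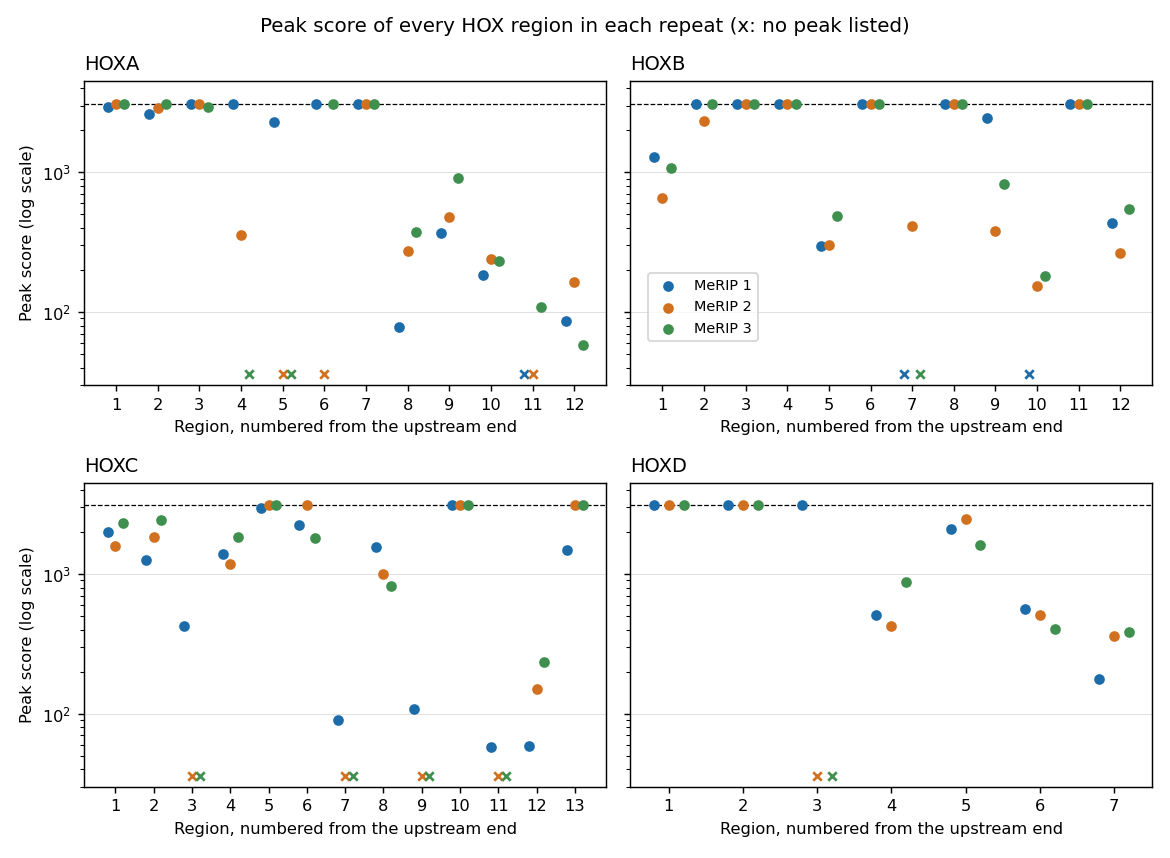
Each point is the peak score (log axis) of a region in 1 repeat, with regions numbered from the upstream end of their cluster, a dashed line at the ceiling of 3100 and a cross where no peak was listed. HOXA regions 8 to 12 lie at 905 or lower, and the crosses of HOXC belong to MeRIP 2 and MeRIP 3.

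The clusters were then compared by the part of the window that peaks covered. It was 9.82 ± 0.400% in HOXA, 7.78 ± 0.589% in HOXB, 9.59 ± 1.09% in HOXC and 7.90 ± 0.606% in HOXD (SD, n = 3 lists). HOXA and HOXC were above HOXB and HOXD in 3 of 3 lists. Gene spacing within the windows was not adjusted for. HOXA exceeded HOXB by 2.04 ± 0.903 and HOXD by 1.91 ± 0.571 percentage points. HOXC exceeded HOXD by 1.69 ± 0.481 points, and HOXB minus HOXC was -1.82 ± 1.66. Each of these 4 had an exact two-sided sign-flip permutation p of 0.25, the smallest possible, and 0.375 after Benjamini-Hochberg adjustment over 6 pairs. HOXA and HOXC differed by 0.226 ± 0.986 points and HOXB and HOXD by -0.129 ± 1.18, less than the spread between lists. With peaks that reached the median score of their own list the order changed to HOXC, HOXB, HOXA and HOXD, at 8.20, 6.61, 6.40 and 5.73%.

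Where the covered bases lay also differed in form between clusters. The first 2 sections held 44.8 ± 5.03% of them in HOXA, 19.0 ± 1.50% in HOXB, 51.5 ± 1.88% in HOXC and 50.7 ± 3.26% in HOXD (SD, n = 3 lists). The range of HOXB, 17.9 to 20.7%, did not overlap that of any other cluster. The part of gene spacing in this difference was not tested. With peaks that reached the median of their own list the figure for HOXA turned to 63.2%, since the 5 weak regions of the last section gave few such peaks.

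Neighbouring regions were close in parts of every cluster. The median gap between neighbours was 6.83 kb in HOXA, 5.39 kb in HOXB, 4.73 kb in HOXC and 10.9 kb in HOXD. Chained at 10 kb, the 12, 12, 13 and 7 regions fell into 5, 4, 5 and 4 groups. The shortest gap was 43 bp, between HOXA regions 9 and 10, which were separate peaks in each list and scored 366.7 against 184.3, 479.6 against 240.9 and 904.8 against 230.8.

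The peak edges were compared to the base in the 33 regions of all 3 lists, each of which had 1 peak per list. Both edges were identical in all lists in 16 of them (48.5%, 95% Wilson interval 32.5 to 64.8%), against 72.7% of all such regions. The upstream edge was identical in 31 (93.9%, against 93.1%) and the downstream edge in 18 (54.5%, against 77.4%). Width went with this: among regions of over 1000 bp both edges were identical in 10 of 25 (40.0%, against 41.2%), the upstream edge in 24 (96.0%, against 89.6%) and the downstream edge in 11 (44.0%, against 45.3%). At that width the HOX figures lay within their counting error of those for all regions.

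Where edges differed, it was mostly the downstream edge. The direction was the same over all such regions, where the upstream edge was identical in 93.1% and the downstream edge in 77.4%. In 15 of the 17 regions with differing edges the upstream edge alone was shared. In HOXA region 10 and HOXB region 5 it was the downstream edge alone, and in none did both differ. The same split among all regions with differing edges was not taken, so nothing is read from these counts. The downstream edge moved by 2 to 1161 bp, with a median of 73 bp. The largest shift was that of HOXA region 12 and the next that of HOXA region 2, at 358 bp. By cluster, 5 of 6 regions in HOXD had both edges identical, 5 of 10 in HOXB, 4 of 9 in HOXC and 2 of 8 in HOXA.

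Scores of HOX regions varied between lists about as much as elsewhere. In 17 HOX regions every list gave a score below the ceiling, and 9 of them (52.9%, 95% Wilson interval 31.0 to 73.8%) had a highest score at most 2 times the lowest, against 52.4% of all such regions. The median ratio was 1.96, beside 1.94 over all regions, and it ran from 1.31 in HOXA region 10 to 6.37 in HOXB region 9.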

How the data were processed

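MeRIP-seq of 3 repeats (6 samples, IP and input) was deposited as 1 peak list per repeat. The hg19 build, cutadapt 1.9.3 and HISAT2 2.0.4 are named per the submitters' processing notes. Names of peaks hold the word MACS, a peak caller, with no version or setting stated. The score of each peak was used as the authors deposited it, capped at 3100, the most frequent value. File names speak of mRNA, and how peaks were picked for listing is not stated. Starts were read as BED (counted from 0) and are printed counted from 1.

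Peaks were joined by at least 1 bp on the same strand. Shares carry 95% Wilson intervals for counting error only; lists were compared by exact sign-flip permutation. Regions are described in full by a rule: per cluster the 3 with the highest lowest score (ties by width), the widest, that with the largest score ratio below the ceiling, and those missing from a list where 5 or fewer; others named, and the grouped sections, width classes and peak numbers, were chosen after values were seen. Windows, members and lists were chosen with earlier results of these data known. The code was tested on simulated lists. Work was done in Python 3.11.15 (SciPy 1.17.1 for intervals, NumPy 2.4.6, Matplotlib 3.10.9 for plots and pandas 2.3.3).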

Additional observations from a re-analysis of the deposited data

How the results depend on the processing

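Between IP and input no paired analysis was possible because both enter the same list and have no values of their own; the comparisons of clusters, and of HOX with all peaks, were already made within each list. The 33 HOX regions in all lists were 32 with a 50% reciprocal overlap, 33 with any overlap with the window, with the whole peak inside it or with strand ignored, 22 with peaks that reached the median of their own list, and 34 without any 1 repeat, when both remaining lists were counted. The share of regions in all lists, 75.0%, ran from 79.1 to 89.5% without 1 repeat, which asks for 2 lists in place of 3. The same share was 71.1% with a 50% reciprocal overlap. With strand ignored, HOXA was covered over 10.5% of its window. With peaks that reached that median, which are fewer, HOXA had 4 and HOXD 3 regions in all lists; HOXA, HOXB, HOXC and HOXD were covered over 6.40, 6.61, 8.20 and 5.73%; the first 2 sections held 63.2, 22.5, 60.0 and 62.3% of covered bases; and the log2 score difference from all peaks was 0.75. With peaks of at most 1000 bp, which leaves out most HOX peaks, 8 regions (44.4%) were in all lists, 1, 3, 2 and 2 by cluster; cover was 1.44, 1.10, 2.14 and 1.96%; the first 2 sections held 0, 33.8, 86.6 and 66.2%; the score difference was 1.23, the median width 776 bp, and 6 regions had identical edges. With peaks over 1000 bp alone, a setting chosen after seeing the data, 23 regions (82.1%) were in all lists, 5 of them in HOXA; HOXA, HOXB, HOXC and HOXD were covered over 8.38, 6.67, 7.45 and 5.94%; the first 2 sections held 53.2, 16.6, 43.8 and 45.3%; the score difference was 0.39, the median width 1321 bp, and 10 regions had identical edges. The direction of the score difference was the same under each of these settings. Read depth is unknown, so absence from a list is limited by coverage that was not seen.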

Other observations

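Peaks on the strand opposite to the HOX genes were looked for in the same windows. There was 1 such region, a plus-strand region of the HOXA window at 27227693 to 27228912 of chromosome 7, 1220 bp wide with the same edges in both lists that held it. It was at the ceiling of 3100 in MeRIP 1 and in MeRIP 2 and was not listed in MeRIP 3. It lay between HOXA regions 1 and 2. HOX clusters are known to be read on the opposite strand too, into long noncoding RNAs, but no annotation of hg19 was used to name this region. The HOXB, HOXC and HOXD windows held none in any list.

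Peak numbers left out per interval between neighbouring listed peaks were fewer in the HOX windows than over all listed peaks. The intervals were not scaled by their length, so this does not show fewer left-out numbers per kb. Between neighbouring listed peaks in the 4 windows, counted over both strands, a mean of 0.868 numbers was left out in MeRIP 1, 1.33 in MeRIP 2 and 1.12 in MeRIP 3, against 3.52, 2.74 and 2.73 over all lists. The stretch of 101.6 kb in HOXB held 10 of the 33 numbers left out in MeRIP 1, 15 of 44 in MeRIP 2 and 10 of 36 in MeRIP 3. The difference from other parts of the genome was not tested.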
